A study of Mus musculus with 6 samples.

Results

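The genes of the ribosomal proteins were followed in RNA sequencing data from mouse leukaemia cells treated with panobinostat or vehicle. Members were chosen by symbol alone. Protein-coding genes named Rpl, Rps or Rplp with a number (and an optional final a, x, l or y), together with Rpsa, made up the cytosolic class. Genes named Mrpl or Mrps with a number made up the mitochondrial class. Of 27179 gene identifiers in the count table, 80 belonged to the cytosolic class and 78 to the mitochondrial class, 158 in all. The cytosolic class held 47 large-subunit genes, 30 small-subunit genes and 3 genes of the P-stalk, and 4 of its members lie on the X chromosome. The mitochondrial class held 49 Mrpl and 29 Mrps genes. Rps4l matched the pattern but is annotated as a pseudogene, and was not a member.

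The panobinostat group and the vehicle group had 3 libraries each. Panobinostat is an inhibitor of histone deacetylases, and the cells of either group were collected from the spleen after 3 days of treatment. All 6 libraries came from leukaemia cells of C57BL/6 background that express the A/E9a fusion oncogene and NRASG12D, an activated RAS, and lack Ifnar1, which encodes a chain of the receptor for type I interferons, so the vehicle cells carry these alleles too. The cells were sorted as viable and positive for green fluorescent protein. The labels give all of them 1 cell line name and do not say whether each library stands for its own animal. The p-values below therefore measure the spread between these libraries, which may be technical.

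A ribosome has a large and a small subunit, each built from ribosomal RNA and many proteins. Cytosolic ribosomes translate the mRNAs made in the nucleus. Their protein genes are among the most highly expressed of any growing cell, and their mRNAs begin with a terminal oligopyrimidine (TOP) tract, through which the kinase complex mTORC1 and the RNA-binding protein LARP1 control translation. Mitochondrial ribosomes translate the few respiratory-chain proteins encoded by the mitochondrial genome. Their proteins are encoded in the nucleus, made in the cytosol and imported.

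Pyrimidine tracts at the transcription start were more frequent in the cytosolic class. RefSeq promoter sequences, which run from 250 bases before to 50 bases after an annotated start in build GRCm38.p6, were at hand for 129 of the 158 members (60 cytosolic and 69 mitochondrial). Runs of at least 8 pyrimidines (C or T) on the transcript strand were sought from 20 bases before to 30 bases after the start. Each gene was counted once, as matched if any promoter listed for it matched. Such a run overlapped this stretch for 68.3% of the cytosolic genes. The same was true of 29.0% of the mitochondrial genes and 26.4% of all 27025 genes in the RefSeq promoter table. The letters CTTTCC were read on the transcript strand in the same stretch. They were found for 12 of 60 cytosolic and 2 of 69 mitochondrial genes, against 2.83% of all genes in that table. The pyrimidine and CTTTCC searches were chosen after sequences had been seen, so these shares are a description and not an independent test. Starts of 6 cytosolic members are shown from 20 bases before to 20 bases after the annotated start, chosen after the sequences had been seen as examples of the tract. Capitals mark pyrimidine runs of at least 8 bases.
Rps6 (chr4:86857348-86857387, minus strand): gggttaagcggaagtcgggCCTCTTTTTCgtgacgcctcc
Rpl35 (chr2:39005112-39005151, minus strand): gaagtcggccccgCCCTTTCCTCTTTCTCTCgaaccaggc
Rps18 (chr17:33955646-33955685, minus strand): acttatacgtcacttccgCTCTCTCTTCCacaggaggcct
Rpl15 (chr14:18270967-18271006, minus strand): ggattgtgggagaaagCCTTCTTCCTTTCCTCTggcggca
Rplp2 (chr7:141447631-141447670, plus strand): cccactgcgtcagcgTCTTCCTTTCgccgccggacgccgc
Rps10 (chr17:27635225-27635264, minus strand): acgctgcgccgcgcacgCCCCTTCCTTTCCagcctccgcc
In the 40 bases shown, each of these runs covers the middle of the window, where the annotated start lies. Their lengths go from 10 bases in Rps6 and Rplp2 to 17 bases in Rpl15 and 18 bases in Rpl35. For 4 mitochondrial members named in the results, the same window is given, again with such runs in capitals.
Mrpl52 (chr14:54426889-54426928, plus strand): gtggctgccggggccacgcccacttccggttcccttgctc
Mrpl49 (chr19:6057736-6057775, minus strand): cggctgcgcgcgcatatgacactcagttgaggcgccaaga
Mrpl43 (chr19:45006423-45006462, minus strand): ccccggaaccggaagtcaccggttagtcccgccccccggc
Mrps21 (chr3:95871495-95871534, minus strand): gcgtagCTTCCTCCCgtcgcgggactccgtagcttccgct
Mrps21 alone of these 4 has a run, of 9 bases, upstream of its start. Mrpl52, Mrpl49 and Mrpl43 have none.

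Other promoter motifs were found at closer shares in the 2 classes. The motif CCGGAAG, bound by ETS factors such as GABP, was found on either strand of the whole promoter in 24 of 60 cytosolic and 26 of 69 mitochondrial members, against 9.93% of all genes. AAGATGG, the core of the YY1 site, was found in 9 cytosolic and 13 mitochondrial members, against 7.28% of all genes. GCATGCG, part of the NRF1 site, was found in 8.33% and 11.6% of the cytosolic and mitochondrial members and in 4.01% of all genes. The GC box GGGCGG was found in 35 cytosolic members, 34 mitochondrial members and 38.2% of all genes. The E-box CACGTG was found in 6 cytosolic members, 5 mitochondrial members and 8.09% of all genes. TATAAA, the core of the TATA box, was found in 11.7% of cytosolic members, 7.25% of mitochondrial members and 15.7% of all genes. CCGGAAG and AAGATGG can share letters, and a match is a description of the letters only. Promoters of a member of each class are given as examples from 250 bases before to 20 bases after the start, with CCGGAAG or its reverse complement in capitals. They are the cytosolic member with the widest spread between libraries and the mitochondrial member with the highest level per length.
Rps7 (chr12:28635934-28636203, minus strand): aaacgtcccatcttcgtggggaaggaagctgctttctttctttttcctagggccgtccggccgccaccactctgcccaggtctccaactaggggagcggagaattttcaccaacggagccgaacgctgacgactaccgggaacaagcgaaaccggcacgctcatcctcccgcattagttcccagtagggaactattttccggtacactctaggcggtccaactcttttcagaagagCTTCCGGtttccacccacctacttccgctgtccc
Mrpl52 (chr14:54426659-54426928, plus strand): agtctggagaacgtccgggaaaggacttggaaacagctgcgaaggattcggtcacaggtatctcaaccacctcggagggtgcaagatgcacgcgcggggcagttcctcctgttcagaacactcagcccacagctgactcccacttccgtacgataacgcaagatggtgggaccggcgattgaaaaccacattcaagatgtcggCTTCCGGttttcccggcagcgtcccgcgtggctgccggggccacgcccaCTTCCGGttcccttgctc
Rps7 has 1 match, just before its start, and Mrpl52 has 2, with the second just after the start.

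**Figure D1:**
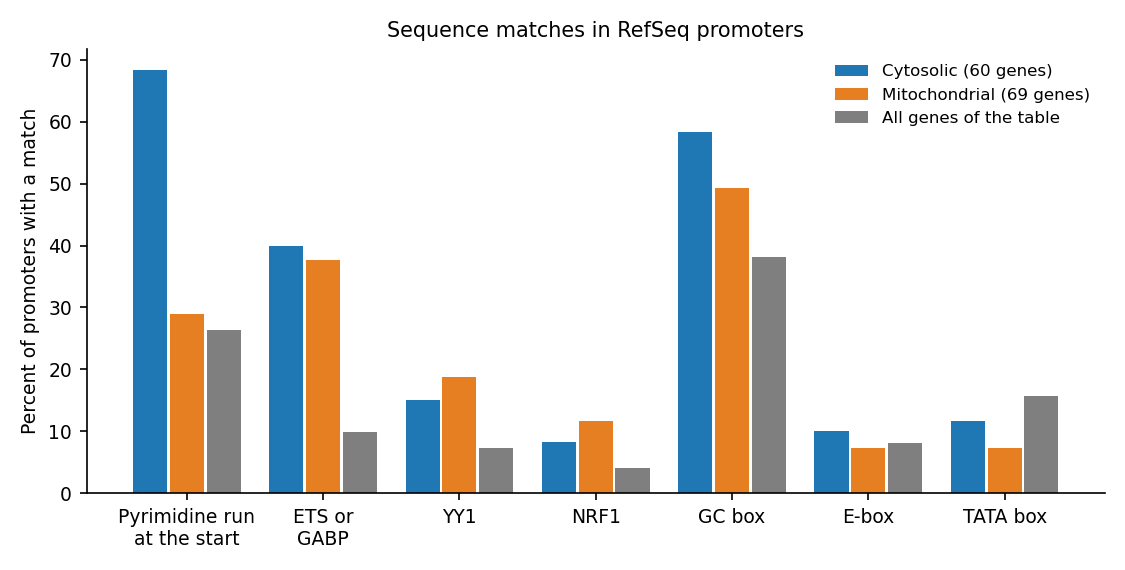
Percent of genes (y axis) with a match to each sequence feature (x axis) in any RefSeq promoter listed for the gene. The sets are 60 cytosolic members, 69 mitochondrial members and all 27025 genes of the promoter table. The pyrimidine run, a search chosen after sequences had been seen, is more frequent in the cytosolic class (68.3%) than in the mitochondrial class (29.0%). The ETS motif is found in a like share of both classes (24 of 60 and 26 of 69).

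Levels are given as CPM, the usual measure of counts relative to library size, here after scaling by the trimmed mean of M-values (TMM). Sequencing depth was 31989622 to 35962605 counts a library. Where a library had no count of a gene, the limit is 3 counts, or 0.0834 to 0.0948 CPM, and it covers counting error only. Per kilobase of spliced transcript, the median cytosolic member stood at 669 CPM (quartiles 504 and 892; 77 tested members with a known length), the median mitochondrial member at 26.1 CPM (quartiles 14.4 and 38; 77 members) and the median tested gene at 12.6 CPM. Of all counts, the cytosolic class took 5.18%, 4.81% and 4.72% in panobinostat libraries 1, 2 and 3, and 4.14%, 5.63% and 4.90% in vehicle libraries 1, 2 and 3. The mitochondrial class took 0.282%, 0.298% and 0.291% in panobinostat libraries 1 to 3, and 0.265%, 0.342% and 0.309% in vehicle libraries 1 to 3. For both classes the panobinostat libraries lay inside the range of the vehicle libraries, which vehicle library 1 bounded from below and vehicle library 2 from above.

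The order of levels within the cytosolic class was led by Rplp1 and Rplp0 of the P-stalk, which recruits and activates the translation factor GTPases on the large subunit. Rplp1 stood at 2832 CPM per kilobase and Rplp0 at 2226, followed by Rpl8, a large-subunit protein near the peptidyl transferase centre, at 1540. Rplp2, the third stalk gene, stood lower, at 1241. At the low end of the tested members were Rpl39l at 1.19, Rpl39 at 13.8 and Rpl21 at 88.3 CPM per kilobase. How reads that match several copies of a gene were counted is not given, so these low levels are uncertain. Rpl39 lines the exit tunnel for the growing peptide, and Rpl39l is its paralog known from testis. Rpl10l and Rpl3l, 2 other paralogs with a restricted expression, were near absent. Rpl10l, known from testis, had 0, 1 and 1 counts in panobinostat libraries and 0 counts in each vehicle library. Rpl3l, known from heart and skeletal muscle, had 12, 6 and 6 counts in panobinostat libraries and 8, 7 and 7 counts in vehicle libraries. Their broadly expressed partners were at 624 to 747 CPM for Rpl10, which joins the large subunit late in its assembly, and at 1245 to 1303 CPM for Rpl3, which lies at the peptidyl transferase centre, in the panobinostat libraries. In the vehicle libraries Rpl10 was at 555 to 740 CPM and Rpl3 at 1067 to 1330 CPM. Rpl32l, named after its values were seen, is a tested member without a known length. It was at 231, 200.3 and 192.4 CPM in panobinostat libraries and at 164, 245.5 and 189 CPM in vehicle libraries. Whether it shares reads with Rpl32 was not tested, so its level is uncertain too.

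In the mitochondrial class the level per length was highest for Mrpl52 (196.9 CPM per kilobase), Mrps21 (78.1) and Mrpl34 (73.9), and lowest among tested members for Mrps25 (5.205), Mrpl47 (5.206) and Mrpl17 (5.57). Mrpl36 was not tested, with 2, 8 and 5 counts in panobinostat libraries and 4, 3 and 5 in vehicle libraries. Transcript lengths were taken from the annotation and not from these cells, so a long annotated 3′ end lowers such a value. Mrpl17 has an annotated length of 7300 bases against 418 bases for Mrpl52.

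The question put to each class was whether its mRNAs differed between panobinostat and vehicle cells. The cytosolic genes summed to 51678, 48656 and 47629 CPM in panobinostat libraries 1 to 3, against 41804, 56082 and 48027 CPM in vehicle libraries 1 to 3. The mitochondrial genes summed to 2813, 3015 and 2939 CPM in panobinostat libraries, against 2677, 3403 and 3023 CPM in vehicle libraries. The sums overlapped, and the vehicle libraries spread more widely than the panobinostat libraries (SD 2105 CPM in panobinostat and 7159 CPM in vehicle libraries for the cytosolic class, n = 3 each). The panobinostat mean over the vehicle mean was 1.01 for the cytosolic class and 0.963 for the mitochondrial class. In bulk RNA, a smaller share of cells of a type and less RNA per cell cannot be told apart.

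**Figure D2:**
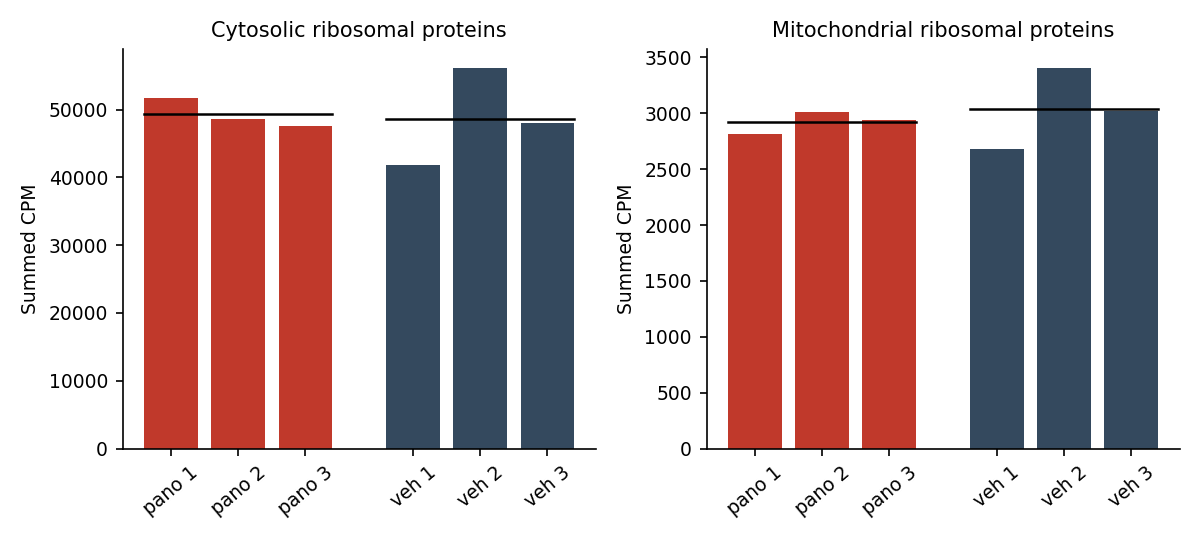
Summed CPM (y axis, from 0) of the 80 cytosolic members (left) and the 78 mitochondrial members (right) in each library (x axis; pano, panobinostat; veh, vehicle), with the group mean as a black line. The panobinostat libraries lie between the lowest vehicle library (number 1) and the highest (number 2) in both classes.

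By edgeR's quasi-likelihood F-test with Benjamini-Hochberg adjustment over 13207 tested genes, no cytosolic member (0 of 78) and no mitochondrial member (0 of 77) passed the threshold of 0.05, and neither did any other gene (0.0% called). At an unadjusted p under 0.05 there were 301 genes (2.28%), none of them a member. The smallest unadjusted p was 0.414 in the cytosolic class and 0.159 in the mitochondrial class, and the smallest adjusted p was 0.998 in either. DESeq2 called 9 genes (0.0681%) and limma-voom 0 (0.0%), again with no member. Values that did not overlap between the groups were seen for 981 genes (7.43%), but for 0 tested members of either class. In 68 of 78 cytosolic members (87.2%) and 45 of 77 mitochondrial members (58.4%), all 3 panobinostat libraries lay within the range of the vehicle libraries, as they did for 36.2% of tested genes.

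Estimates of the log2 fold change, panobinostat over vehicle, were small in both classes. They ran from -0.30 to 0.23 in the cytosolic class with a median of 0.026, and 53 of 78 were above 0. They ran from -0.29 to 0.16 in the mitochondrial class with a median of -0.061, and 54 of 77 were below 0. Over all tested genes the median was 0.001, with 50.2% above 0 and 49.8% below. The cytosolic estimates were bunched, with 37.2% of members between 0 and 0.05 and 26.9% between 0.05 and 0.1. These medians moved with single libraries. Without vehicle library 1, the cytosolic median was -0.074 and the mitochondrial median -0.143, with 66 of 78 and 65 of 77 estimates below 0. Without vehicle library 2, the cytosolic median was 0.15 and the mitochondrial median 0.042. Without panobinostat library 1, the cytosolic median was -0.008 and the mitochondrial median -0.033. The fit without vehicle library 1 called 324 genes in all (2.42%) and 0 members.

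**Figure D3:**
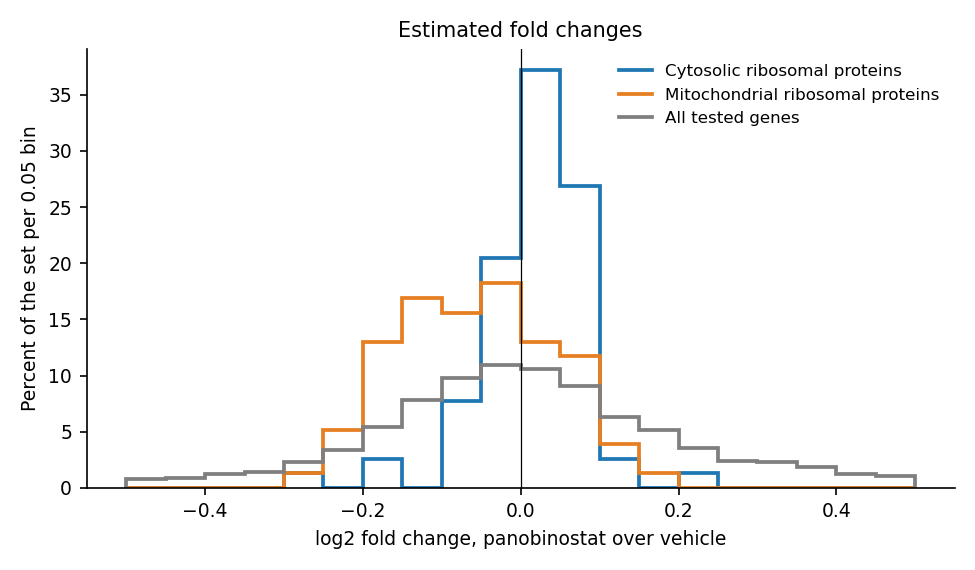
Distribution of the estimated log2 fold change, panobinostat over vehicle (x axis), as percent of each set per bin of 0.05 (y axis), for 78 cytosolic members, 77 mitochondrial members and 13207 tested genes, of which 12.7% lie outside the axis. Both classes are narrower than the whole table, with medians of 0.026 and -0.061.

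The members shared much of their order over the libraries. Vehicle library 1 was the lowest of the 6 libraries for 68 of 78 cytosolic members (87.2%) and 45 of 77 mitochondrial members (58.4%), compared with 25.4% of all tested genes. Vehicle library 2 was the highest for 70 cytosolic members (89.7%) and 59 mitochondrial members (76.6%), compared with 22.4% of all tested genes. Relative to each gene's mean log2 CPM over the 6 libraries, the median cytosolic member stood at 0.086, -0.009 and -0.027 in panobinostat libraries 1 to 3 and at -0.207, 0.215 and -0.047 in vehicle libraries 1 to 3. The median mitochondrial member stood at -0.070, 0.020 and -0.016 in panobinostat libraries and at -0.153, 0.201 and 0.014 in vehicle libraries. The classes thus shared their low and high vehicle library and differed in panobinostat library 1, which was above the mean for the cytosolic class and below it for the mitochondrial class. The summed CPM of the cytosolic over that of the mitochondrial class was 18.4, 16.1 and 16.2 in the panobinostat libraries and 15.6, 16.5 and 15.9 in the vehicle libraries. Across members the log2 range over the 6 libraries had a median of 0.436 in the cytosolic class and 0.414 in the mitochondrial class, against 0.618 over all tested genes. Correlated members are not independent measurements of a treatment.

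**Figure D4:**
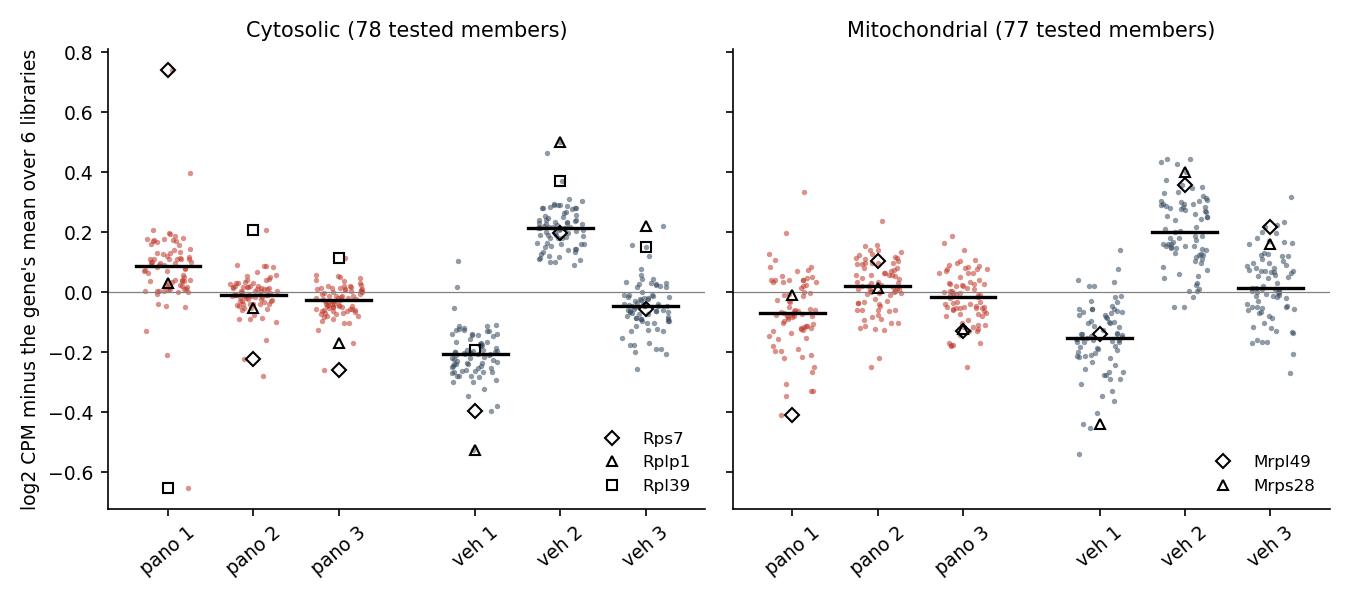
Log2 CPM of each tested member minus its mean over the 6 libraries (y axis), by library (x axis; pano, panobinostat; veh, vehicle), for the cytosolic (left) and mitochondrial class (right). Points are genes, black lines are class medians and open symbols are named genes. Nearly the whole cytosolic class lies low in vehicle library 1 (median -0.207) and high in vehicle library 2 (median 0.215), and Rps7 and Rpl39 stand apart in panobinostat library 1.

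Other values of the libraries stand here beside this order, and no association with it was computed. In a principal component analysis of all tested genes, the first component (50.7% of the variance) set vehicle library 1 at -53.7, against 54.3 and 56.4 for vehicle libraries 2 and 3 and -25.3 to -15 for the panobinostat libraries. The second component (27.6%) set panobinostat library 1 at 64.9, all other libraries being below 0. All 7 erythroid markers found in the table were detected in every library, and their summed level was 2059, 16033 and 21183 CPM in panobinostat libraries and 22175, 12553 and 6409 CPM in vehicle libraries. The 7 mast cell and basophil markers summed to 2416, 979 and 966 CPM in panobinostat libraries, against 831 to 894 CPM in vehicle libraries. Mcpt8 was at 0 in vehicle library 3. Hdc and Ms4a2, the largest of these markers, were lowest of the 6 libraries in vehicle library 1 (420 and 239 CPM). Cma1 was at 84.5, 5.71 and 2.15 CPM and Fcer1a at 60.8, 4.82 and 2.99 CPM in vehicle libraries 1 to 3. Both were higher in vehicle library 1 than in panobinostat libraries 2 and 3. Cpa3, Mcpt8 and Tpsab1 were also highest among the vehicle libraries in library 1. The 7 B cell markers summed to 8.78 to 56.2 CPM in panobinostat libraries and 46.4 to 110.1 CPM in vehicle libraries, with Pax5 at 0 in panobinostat library 1. T cell markers summed to at most 6.16 CPM and granulocyte and monocyte markers to at most 8.35 CPM in any library (Ly6g was at 0 in all but vehicle library 2). Megakaryocyte markers summed to 16.6, 80.4 and 111.4 CPM in panobinostat libraries 1 to 3, against 174.3, 7.49 and 7.60 CPM in vehicle libraries 1 to 3. The part of these differences in the ribosomal protein levels was not tested. Of the markers of progenitor and leukaemia cells, Kit, Gata2, Runx1 and Myb were at 121 CPM or more in all 6 libraries and Cd34 at 6.09 CPM or less.

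Among the P-stalk genes, Rplp1 (chr9:61913283-61914510) was at 1409, 1329 and 1226 CPM in panobinostat libraries 1 to 3, against 958, 1949 and 1607 CPM in vehicle libraries 1 to 3. All panobinostat libraries lay between vehicle library 1 and the other vehicle libraries, so the groups overlapped. The log2 fold change was -0.19 with an SE of 0.258 (edgeR adjusted p = 0.998). Without both libraries numbered 1, Rplp1 was the only member to pass the threshold, at -0.49 with an SE of 0.112 (edgeR adjusted p = 0.0416). That setting compares 2 libraries with 2 and called 1590 of 13239 genes (12.0%), of which 616 were lower (4.65%), and leaving out vehicle library 1 alone gave Rplp1 an adjusted p of 0.114. Rplp0, the scaffold of the stalk, averaged 2969 ± 57.4 CPM in panobinostat libraries and 3078 ± 534 CPM in vehicle libraries (SD, n = 3 each). Rplp2, the partner of Rplp1, was at 516 to 608 CPM in panobinostat libraries and at 494 to 643 CPM in vehicle libraries. For all 3 stalk genes, vehicle library 1 was the lowest and vehicle library 2 the highest of the 6 libraries.

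In the small subunit, Rps7 (chr12:28630847-28635953), a protein of early small-subunit assembly that also binds the p53 ligase Mdm2, had the widest spread of the tested members. It was at 1448, 743 and 723 CPM in panobinostat libraries 1 to 3, against 659, 994 and 834 CPM in vehicle libraries 1 to 3. Panobinostat library 1 stood far above the others, and the remaining panobinostat libraries lay within the vehicle range. The log2 fold change was 0.23 with an SE of 0.315 (edgeR adjusted p = 0.998), and -0.18 without panobinostat library 1. Rps29, a small zinc-binding protein, was also highest in panobinostat library 1, with 412, 280 and 291 CPM in panobinostat libraries and 261, 386 and 277 CPM in vehicle libraries. Its log2 fold change of 0.089 became -0.11 without panobinostat library 1.

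Rps2, which lies at the mRNA entry channel, was at 698, 856 and 829 CPM in panobinostat libraries, against 622, 1001 and 902 CPM in vehicle libraries. Vehicle library 1 was the lowest and vehicle library 2 the highest, with the panobinostat libraries between them. Rps6, the substrate of the S6 kinases downstream of mTORC1, was at 1264, 1110 and 1101 CPM in panobinostat libraries and at 977, 1214 and 1069 CPM in vehicle libraries.

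Of 4 further small-subunit genes, Rps19, mutated in human Diamond-Blackfan anaemia, had the narrowest log2 range of the cytosolic members (0.23) and averaged 577 ± 8.27 CPM in panobinostat libraries and 556 ± 45.9 CPM in vehicle libraries (SD, n = 3 each). Rpsa, also known as the laminin receptor, averaged 1768 ± 55.9 CPM in panobinostat libraries and 1681 ± 194 CPM in vehicle libraries. Rps4x, encoded on the X chromosome, averaged 737 ± 54.0 CPM in panobinostat libraries and 743 ± 126 CPM in vehicle libraries. Rps27a, made as a fusion with ubiquitin, averaged 497 ± 18.8 CPM in panobinostat libraries and 516 ± 94.4 CPM in vehicle libraries. In all 4 the vehicle SD exceeded the panobinostat SD and the group means differed by less than the vehicle SD.

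In the large subunit, Rpl39 (chrX:37082518-37085222) went against the class in panobinostat library 1. It had 5.23, 9.53 and 8.93 CPM in panobinostat libraries, from 188, 339 and 301 counts, against 7.20, 10.7 and 9.17 CPM in vehicle libraries, from 228, 372 and 316 counts. Panobinostat library 1 was the lowest of the 6 for Rpl39, while for 8 cytosolic members it was the highest. The log2 fold change was -0.19 with an SE of 0.285 (edgeR adjusted p = 0.998), and 0.035 without panobinostat library 1. Rpl39l was at 0.723, 0.647 and 0.801 CPM in panobinostat libraries and at 0.853, 1.12 and 0.696 CPM in vehicle libraries, from 23 to 39 counts a library. Its estimate of -0.30 (SE 0.340) was the lowest of the class and its unadjusted p of 0.414 the smallest, with overlapping groups.

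The large-subunit genes with the smallest p among the higher estimates were Rpl13, Rpl17 and Rpl18. Rpl13 was at 392.4, 391.6 and 368 CPM in panobinostat libraries, against 301, 406 and 362 CPM in vehicle libraries (log2 fold change 0.11, SE 0.133, edgeR adjusted p = 0.998). Rpl17, at the exit tunnel, was at 239, 221 and 221 CPM in panobinostat libraries, against 200.4, 245 and 191 CPM in vehicle libraries (log2 fold change 0.098, SE 0.125). Rpl18 was at 734, 741 and 690.4 CPM in panobinostat libraries, against 616, 765 and 644 CPM in vehicle libraries (log2 fold change 0.097, SE 0.119). In each of the 3, vehicle library 2 was the highest of the 6 libraries. Rpl22, an RNA-binding protein needed for T cell development in mice, averaged 301 ± 3.89 CPM in panobinostat libraries and 293 ± 47.2 CPM in vehicle libraries (SD, n = 3 each).

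In the mitochondrial large subunit, Mrpl43 (chr19:45005014-45006442) had the smallest p of its class (0.159). It was at 40.5, 46.1 and 44.5 CPM in panobinostat libraries, against 40.9, 39.96 and 36.7 CPM in vehicle libraries. Panobinostat library 1 fell among the vehicle libraries, and the other panobinostat libraries lay above them. The log2 fold change was 0.16 with an SE of 0.099 (edgeR adjusted p = 0.998). Mrpl49 (chr19:6053630-6057755) had the lowest estimate of the class, with 41.0, 58.5 and 49.8 CPM in panobinostat libraries, against 49.5, 69.8 and 63.3 CPM in vehicle libraries. Vehicle library 1 lay below panobinostat libraries 2 and 3, so the groups overlapped, and the log2 fold change was -0.29 with an SE of 0.183 (edgeR adjusted p = 0.998).

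Mrpl35 was at 35.97, 37.6 and 39.1 CPM in panobinostat libraries, against 37.1, 49.5 and 42.9 CPM in vehicle libraries (log2 fold change -0.20, SE 0.128). Mrpl53 was at 15.1, 19.2 and 18.95 CPM in panobinostat libraries, against 18.4, 25.8 and 19.0 CPM in vehicle libraries (log2 fold change -0.25, SE 0.184). Mrpl48 was at 29.7, 27.8 and 25.8 CPM in panobinostat libraries, against 21.9, 39.2 and 32.5 CPM in vehicle libraries (log2 fold change -0.17, SE 0.216). In these 3 genes vehicle library 2 was again the highest, and the panobinostat libraries overlapped the vehicle range. Mrpl17 (log2 fold change 0.11, SE 0.109), Mrpl19 (0.088, SE 0.095) and Mrpl44 (0.096, SE 0.106) had the smallest p among the higher estimates after Mrpl43, with unadjusted p of 0.354, 0.389 and 0.395.

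Members with a further known role overlapped between the groups. Mrpl12, which also binds the mitochondrial RNA polymerase, averaged 64.4 ± 4.10 CPM in panobinostat libraries and 61.1 ± 8.94 CPM in vehicle libraries (SD, n = 3 each). Mrpl11, at the base of the factor-binding stalk, averaged 33.7 ± 3.13 CPM in panobinostat libraries and 31.6 ± 2.68 CPM in vehicle libraries. Mrpl44, which has a ribonuclease III fold, averaged 25.8 ± 0.921 CPM in panobinostat libraries and 24.2 ± 1.56 CPM in vehicle libraries. Mrpl58, a peptidyl-tRNA hydrolase that rescues stalled ribosomes, was at 21.5, 21.4 and 21.0 CPM in panobinostat libraries, against 18.7, 30.9 and 24.3 CPM in vehicle libraries. The 3 panobinostat libraries of Mrpl58 lay within a narrow band inside the vehicle range.

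Among the Mrps genes, Mrps28 had the widest range, with 24.8, 25.2 and 22.9 CPM in panobinostat libraries, against 18.4, 32.9 and 27.9 CPM in vehicle libraries. The spread came from the vehicle libraries alone, and the log2 fold change was -0.12 with an SE of 0.218 (edgeR adjusted p = 0.998). Mrps30 was at 40.6, 48.4 and 47.1 CPM in panobinostat libraries, against 46.1, 54.2 and 54.7 CPM in vehicle libraries (log2 fold change -0.19, SE 0.119), and is found in the large subunit despite its symbol. Mrps21 was at 32.8, 32.1 and 33.5 CPM in panobinostat libraries, against 32.4, 41.9 and 36.5 CPM in vehicle libraries (log2 fold change -0.17, SE 0.120). Both overlapped between the groups.

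Of the Mrps18 paralogs, Mrps18a sits in the large subunit. Mrps18a averaged 29.3 ± 1.08 CPM in panobinostat libraries and 27.8 ± 3.92 CPM in vehicle libraries (SD, n = 3 each), and was the only tested member with its highest value in vehicle library 1. Mrps18b averaged 15.6 ± 1.11 CPM in panobinostat libraries and 16.8 ± 2.42 CPM in vehicle libraries, and Mrps18c averaged 23.3 ± 1.25 CPM in panobinostat libraries and 25.2 ± 4.53 CPM in vehicle libraries. Mrps12, at the decoding centre, averaged 29.2 ± 2.67 CPM in panobinostat libraries and 29.7 ± 5.39 CPM in vehicle libraries. Mrps27, a pentatricopeptide repeat protein, was at 28.4, 26.8 and 26.8 CPM in panobinostat libraries, against 18.1, 29.3 and 31.0 CPM in vehicle libraries, with vehicle library 1 far below the other 5. Mrps36, which is also known as a subunit of the oxoglutarate dehydrogenase complex, averaged 41.2 ± 6.61 CPM in panobinostat libraries and 43.8 ± 4.51 CPM in vehicle libraries.

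Many ribosomal protein genes have processed pseudogenes, inserted copies of their mRNA that can share its reads. The count table held 34 rows named as pseudogenes of ribosomal protein genes of the cytosolic pattern, and 14 members were parents of such rows. In 7 of these 14, the pseudogene rows together had more CPM than the parent. The ratio of pseudogene to parent CPM was nearly constant over the libraries. It was 2.22 to 2.29 in the 6 libraries for Rpl31 (5 pseudogene rows), 2.07 to 2.15 for Rps12 (9 rows), 3.15 to 3.30 for Rpl17 (2 rows) and 0.765 to 0.792 for Rpl15 (1 row). Between groups it was 2.31 in panobinostat and 2.37 in vehicle libraries for Rpl13, and 0.778 in either group for Rpl15. The only row at 0 in all libraries was the pseudogene of Rplp2. Of the 32 pseudogene rows tested, 0 were called, and vehicle library 1 was the lowest for 26 and vehicle library 2 the highest for 25. How the authors' counting placed reads that match several copies is not given in the sources used here, so the level of these members is uncertain. These parents, and the members whose starts are printed, were named after their values or sequences had been seen.

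**Figure D5:**
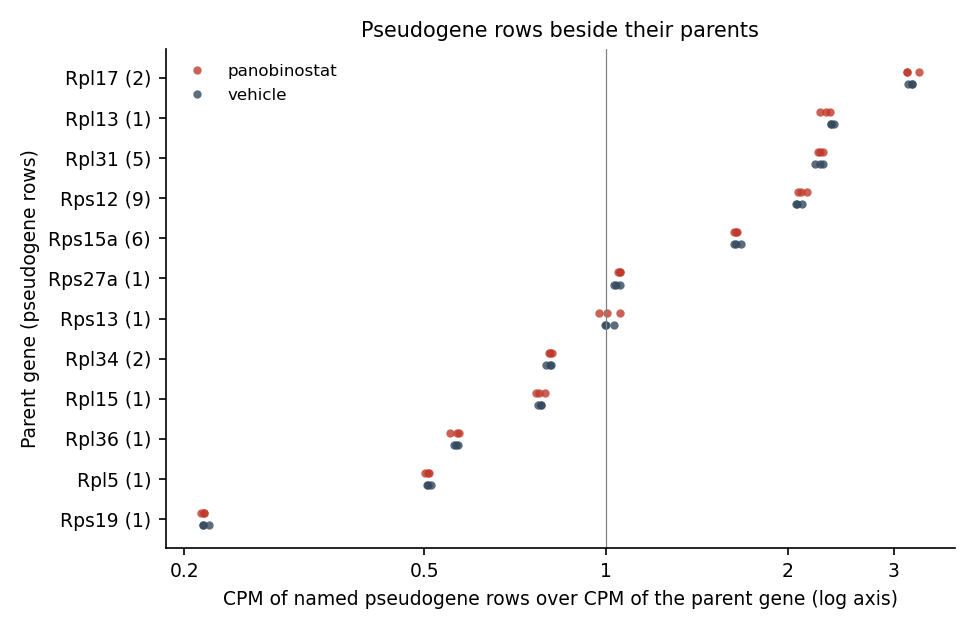
Summed CPM of the named pseudogene rows over the CPM of their parent (x axis, log scale) for 12 cytosolic members (y axis, number of rows in parentheses), with a point per library and panobinostat above vehicle. Points of a gene nearly coincide, from about 0.216 for Rps19 to about 3.2 for Rpl17. Rplp2, whose pseudogene row was at 0, is not drawn, and neither is 1 further parent.

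Ribosomal proteins with other symbols lay close to the classes. Of 7 such cytosolic genes, 5 had estimates above 0 and 0 were called, with a median log2 fold change of 0.035. Without vehicle library 1, 4 of the 7 had estimates below 0 (median -0.016). Rpl36al was at 257, 158 and 156 CPM in panobinostat libraries, against 144, 181 and 153 CPM in vehicle libraries, so that, as for Rps7, panobinostat library 1 stood above the other 5. Its log2 fold change was 0.26 with an SE of 0.223 (edgeR adjusted p = 0.998). Rack1, a scaffold protein on the head of the small subunit, was at 1044, 1029 and 993 CPM in panobinostat libraries, against 865, 1093 and 972 CPM in vehicle libraries. Of 5 such mitochondrial genes, 4 had estimates below 0 and 0 were called, with a median of -0.089. Without vehicle library 1, all 5 had estimates below 0 (median -0.164). Dap3, a GTP-binding protein of the small subunit, was at 59.9, 71.5 and 77.6 CPM in panobinostat libraries, against 71.4, 84.7 and 81.5 CPM in vehicle libraries. Ptcd3, a pentatricopeptide repeat protein of the small subunit, was at 80.3, 84.2 and 79.7 CPM in panobinostat libraries and at 75.7, 91.7 and 92.1 CPM in vehicle libraries, and both genes overlapped between the groups.

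Of 16 translation factors and other genes with TOP mRNAs, 13 had estimates above 0 and 0 were called (median log2 fold change 0.049). Without vehicle library 1, 10 of the 16 had estimates below 0 (median -0.013). That fit called 1 of them higher (Vim), and 2.42% of all tested genes. Nap1l1, a histone chaperone, was at 471, 495 and 496 CPM in panobinostat libraries, against 409, 444 and 443 CPM in vehicle libraries. Its groups did not overlap, and the log2 fold change was 0.18 with an SE of 0.094 (edgeR adjusted p = 0.998). It was 1 of the 16 without overlap, against 7.43% of all tested genes. Eef1a1, which brings aminoacyl-tRNA to the ribosome, was at 6108, 4745 and 4413 CPM in panobinostat libraries and at 3963, 4888 and 4561 CPM in vehicle libraries. Of 13 genes of the mTORC1 pathway and other regulators of TOP mRNAs, 10 had estimates below 0 and 0 were called (median -0.040). Without vehicle library 1, 7 of the 13 had estimates below 0. The genes of this list do not all act in the same direction, so the count gives no direction for the pathway. Larp1 was at 330, 361 and 336 CPM in panobinostat libraries, against 281, 316 and 320.4 CPM in vehicle libraries. It was 1 of the 13 without overlap, against the same 7.43% (log2 fold change 0.16, SE 0.102, edgeR adjusted p = 0.998). Rheb, the GTPase that activates mTORC1, was at 72.1, 75.3 and 74.6 CPM in panobinostat libraries, inside the vehicle values of 65.7, 97.4 and 84.2 CPM. Of 11 chaperones and import partners of ribosomal proteins, 6 had estimates above 0 and 0 were called (median 0.017). Without vehicle library 1, all 11 had estimates below 0 (median -0.116). The importin Ipo5 was at 262, 307 and 286 CPM in panobinostat libraries and at 230, 272 and 295 CPM in vehicle libraries. Bccip, a ribosomal protein chaperone known from yeast, was at 48.5, 67.3 and 64.9 CPM in panobinostat libraries and at 55.3, 74.5 and 72.8 CPM in vehicle libraries.

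Of 15 factors of mitochondrial translation, 7 had estimates above 0 and 8 below, and 0 were called (median log2 fold change -0.008). Without vehicle library 1, 13 of the 15 had estimates below 0 (median -0.086). Mtrf1l, a mitochondrial release factor, was at 19.0, 18.2 and 16.6 CPM in panobinostat libraries, against 19.7, 22.3 and 21.2 CPM in vehicle libraries. Its groups did not overlap, and the log2 fold change was -0.23 with an SE of 0.120 (edgeR adjusted p = 0.998). Of these 15 genes, 1 was lower and 1 higher without overlap, against 7.43% of all tested genes in either direction. Mtif3, an initiation factor, was at 17.7, 20.2 and 18.5 CPM in panobinostat libraries and at 21.8, 22.3 and 19.0 CPM in vehicle libraries, with overlap. Of 15 assembly factors of the mitochondrial ribosome, 8 had estimates below 0 and 0 were called (median -0.043). Without vehicle library 1, 11 of the 15 had estimates below 0 (median -0.156). Tfb1m, which methylates the small-subunit ribosomal RNA, was at 13.3, 13.2 and 10.8 CPM in panobinostat libraries, against 13.1, 17.6 and 18.2 CPM in vehicle libraries. Only vehicle library 1 reached down into the panobinostat range, and the log2 fold change was -0.39 with an SE of 0.182 (edgeR adjusted p = 0.998). Ddx28, an RNA helicase, was at 13.5, 15.3 and 14.9 CPM in panobinostat libraries and at 13.4, 20.6 and 19.4 CPM in vehicle libraries, with vehicle library 1 below and the other vehicle libraries above all panobinostat values.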

How the data were processed

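Per the labels, mRNA libraries of sorted cells were made with a TruSeq kit. The authors deposited whole-number read counts per gene with Entrez identifiers and no normalization. The submitters' processing notes name build mm10 and, among other tools and in no order, HISAT2 2.1.0, cutadapt 2.1, Subread 2.0.0 and featureCounts. Neither the strand setting nor the handling of reads with several matches nor the annotation is given in the sources used here, so overlapping antisense genes and near-identical copies cannot be told apart.

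Column names give treated or ctrl and a number that the labels do not tie to a replicate, so libraries are called by group and column number. Of 27179 identifiers, 25275 matched a symbol in RefSeq (GRCm38.p6). Counts were compared by edgeR 4.0.16 in R 4.3.3 (filterByExpr with a minimum count of 10, TMM, robust quasi-likelihood F-test, two-sided, Benjamini-Hochberg adjustment over all tested genes, threshold 0.05), with DESeq2 1.42.0 and limma 3.58.1 as alternatives. Standard errors are the log2 fold change divided by the square root of F. Centred log2 CPM used a prior count of 2. The script was run on simulated counts, where the pass condition was the sign of changes larger than any member's estimate. That run does not show whether changes of the members' size would be called. Lengths are medians over the GENCODE principal transcripts of a gene. Other scalings, filters, a block for the column number and leaving out libraries were tried.

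The members and lists were chosen with earlier results of these data known. The pyrimidine and CTTTCC searches, the printed sequences and the length definition were chosen after sequences or lengths had been seen. Genes were named by rule: 24 by name, and per class the 4 smallest p in each direction, the 3 highest and 3 lowest levels per length, the 4 widest ranges at a mean of at least 10 CPM, and the 2 smallest p of each other list. A gene that the rule takes is not reported here.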

Additional observations from a re-analysis of the deposited data

How the results depend on the processing

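In each setting but 1, 0 members of either class passed the threshold in edgeR, DESeq2 or limma-voom. The exception left out both libraries numbered 1, where 1 cytosolic member, Rplp1, was called lower (-0.49) and 974 higher and 616 lower calls were made over all genes. DESeq2 called 7 higher and 2 lower genes. Leaving out 1 library at a time gave 0 to 268 higher and 0 to 56 lower calls, the highest counts without vehicle library 1. Over these fits the cytosolic median ran from -0.074 to 0.15, the mitochondrial median from -0.143 to 0.042, the cytosolic summed ratio from 0.947 to 1.1 and the mitochondrial one from 0.909 to 1.03.

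Fold changes were recomputed for 36 named genes in 17 settings, and the other named genes are described by level only. None of these estimates was called in the full comparison, and the cause of the sign changes that follow was not tested. Leaving out 1 library at a time, the log2 fold change ran from -0.175 to 0.40 for Rps7, -0.108 to 0.287 for Rps29, -0.44 to 0.044 for Rplp1, -0.354 to 0.035 for Rpl39, -0.271 to 0.062 for Rps2, -0.017 to 0.378 for Rpl36al, -0.011 to 0.215 for Rpl13, -0.026 to 0.156 for Rack1, -0.005 to 0.186 for Ipo5, -0.379 to 0.031 for Mrpl48 and -0.335 to 0.073 for Mrps28. Without both libraries numbered 1 the sign turned for Eef1a1 (-0.055), Rack1 (-0.039), Rpl13 (-0.025), Rpl36al (-0.096), Rps29 (-0.224) and Rps7 (-0.326). Changing the scaling, the low-count filter, the tool or the robust option turned the sign of none of the 36.

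Samples of the same column number did not deviate together (r = -0.139, 0.072 and -0.203). Between different numbers r ran from -0.177 to 0.233. Such values, centred within each group, cannot settle whether the numbers pair the libraries, which the labels do not say. With the number as a replicate block, 0 genes were called and the class medians were 0.036 and -0.056. There were 3 libraries a group, and the vehicle libraries differed widely. Neither class was tested as a whole, and the smallest shift that could be detected was not computed. The lack of called members in the full comparison is therefore not evidence that the classes are unchanged.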

Other observations

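Among the genes with TOP mRNAs, the intermediate filament gene Vim, chosen after its values were seen, had the widest spread. It was at 509.6, 276 and 308 CPM in panobinostat libraries 1 to 3, against 549.8, 53.5 and 41.0 CPM in vehicle libraries 1 to 3. Vehicle library 1 was the highest of the 6 for Vim, where it was the lowest for most cytosolic ribosomal proteins. The log2 fold change was 0.76 with an SE of 0.999 (edgeR adjusted p = 0.998). Without vehicle library 1 Vim was called higher, at 2.94 with an SE of 0.331 (edgeR adjusted p = 0.0281), and without both libraries numbered 1 it was at 2.62 (edgeR adjusted p = 0.000757). That last setting also called the initiation factor gene Eif3e lower, at -0.39 (edgeR adjusted p = 0.031). Over all tested genes, 2.42% were called without vehicle library 1 and 12.0% without both libraries numbered 1. The 2 genes are therefore no sign of a change particular to these lists. No other gene of the lists of translation and ribosome assembly genes was called in these 2 settings. Mtrf1, a release factor homologue of mitochondria, was also named after its values were seen. It was at 6.70, 5.99 and 6.14 CPM in panobinostat libraries, against 5.50, 4.82 and 5.83 CPM in vehicle libraries. Its groups did not overlap, as for 7.43% of all tested genes (log2 fold change 0.22, SE 0.184, edgeR adjusted p = 0.998).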
